A study of Mus musculus with 10 samples.

Results

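The hypoxia-inducible factors (HIF) and the enzymes that sense oxygen for them were examined in cultured mouse molars. The members were taken by gene symbol from the annotation (GENCODE mouse M21, GRCm38), and all 10 of them were among the 18381 genes of the count table: Hif1a, Epas1, Hif3a, Arnt, Vhl, Egln1, Egln2, Egln3, Hif1an and Cited2. All 10 also passed the filter on low counts, together with 14504 genes in all. First lower molars at embryonic day 14 were taken from wild type C57BL/6JOlaHsd embryos and cultured in hanging drops for 6 h. From each of 5 embryos (numbered 1, 2, 3, 4 and 6), a tooth received 750 ng/ml of recombinant mouse IGF1, an insulin-like growth factor, in phosphate-buffered saline with bovine serum albumin, and the other tooth received the same volume of that vehicle. The samples are therefore 5 IGF1 teeth and 5 control teeth, paired by embryo, and each tooth is a bulk RNA sample of epithelium, mesenchyme and the other cells of the germ. The labels give no oxygen measurement and no sex.

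HIF is a transcription factor of an oxygen-regulated alpha subunit (Hif1a, Epas1 or Hif3a) and a constitutive partner (Arnt). When oxygen is present, the prolyl hydroxylases Egln1, Egln2 and Egln3 hydroxylate the alpha subunit, Vhl recognises the hydroxylated form as part of a ubiquitin ligase, and the subunit is degraded. Hif1an hydroxylates an asparagine that the coactivators CBP and p300 need to bind, and Cited2 competes for the same coactivators. Control of the alpha subunits is mainly at the level of the protein, which was not measured here. Egln1 and Egln3 are themselves known HIF target genes, whereas Egln2 is not induced by hypoxia in most cells.

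With IGF1, Egln1 and Egln3 rose and the other 8 members did not pass the test. Egln1 was 2.09-fold higher (log2 fold change 1.07, SE 0.193, adjusted p = 0.00537) and Egln3 4.30-fold higher (log2 fold change 2.10, SE 0.430, adjusted p = 0.0103). Both were higher in 5 of 5 embryos. No HIF subunit, neither Vhl nor Hif1an, and not Egln2, was called in either direction by edgeR's quasi-likelihood test, which used embryo as a block and Benjamini-Hochberg adjustment over all genes tested. The members called were thus 2 of 10, both higher, against 11.5% of all genes tested called in either direction, 6.72% called higher and 4.76% called lower. At an unadjusted p under 0.05 there were 4 of 10 members, where all genes gave 26.5%. The median log2 fold change over the members was 0.02, and over all genes tested it was -0.004.

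**Figure D1:**
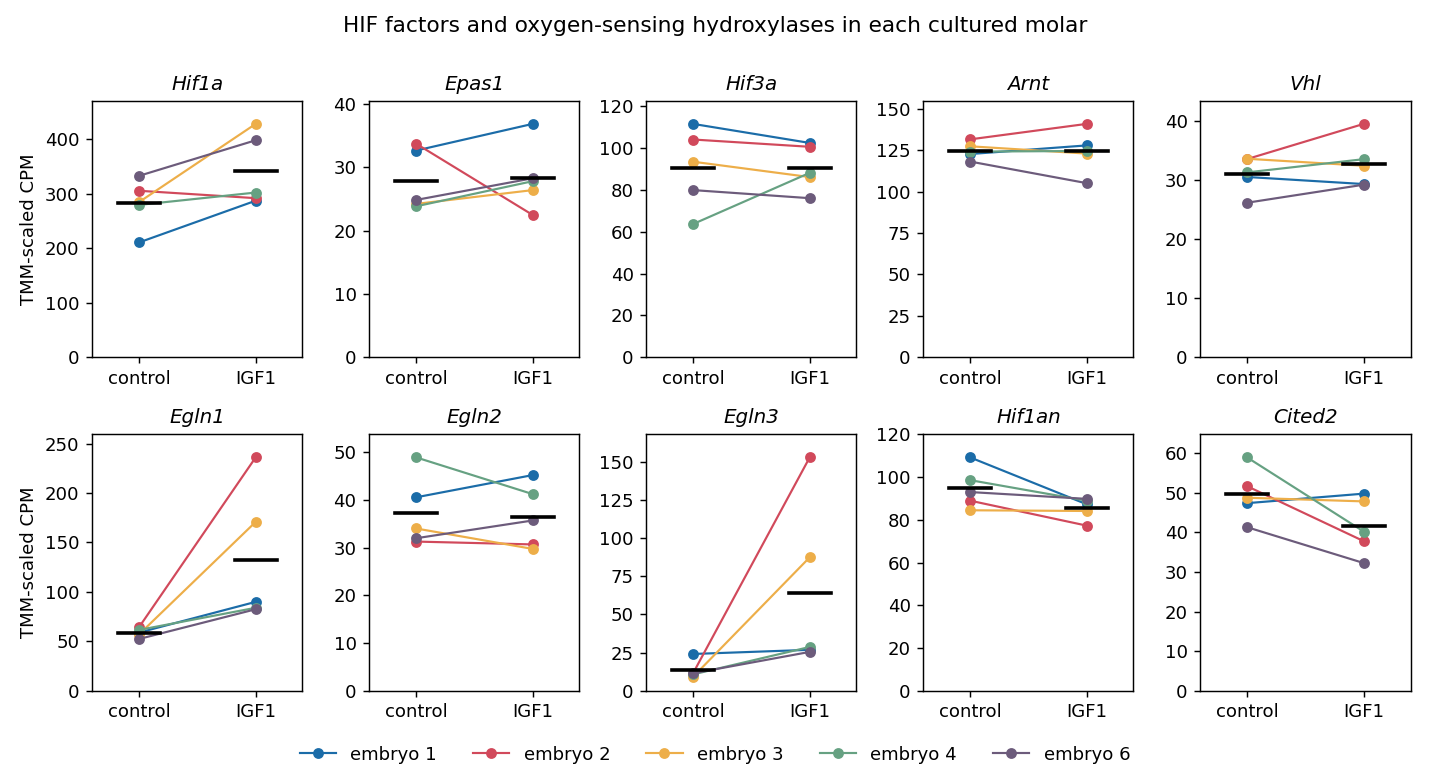
Level of each member in each tooth (y axis, TMM-scaled CPM, from 0) in control and IGF1 teeth (x axis). Circles joined by a line are the teeth of an embryo and black bars are group means (n = 5); in Egln1 and Egln3 all lines go up, with embryos 2 and 3 highest, while the groups of the other members overlap.

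Egln1 and Egln3, the members called, are prolyl hydroxylases, so the promoters of the 3 paralogs are shown. They are RefSeq sequences of GRCm38.p6, from 250 bases before to 50 bases after the start that RefSeq gives, and read 5′ to 3′ on the strand of the gene. Capitals mark the core of the HIF response element, ACGTG or GCGTG, on either strand; on the reverse strand it reads CACGT or CACGC, and an ACGTG preceded by C is matched on both strands with overlapping letters. Egln1 lies on the minus strand of chromosome 8 (gene 124908587 to 124949324 in GENCODE) and its promoter is chr8:124949205-124949504, around a RefSeq start at 124949254 that lies 70 bases inside the GENCODE gene. Egln2 lies on the minus strand of chromosome 7 (27158658 to 27166802), with the promoter of its outer start at chr7:27166753-27167052; this start, at 27166802, is the same in both annotations. Egln3 lies on the minus strand of chromosome 12 (54178981 to 54203860), with its promoter at chr12:54203825-54204124 around a RefSeq start at 54203874, which is outside the GENCODE gene by a few bases.
Egln1: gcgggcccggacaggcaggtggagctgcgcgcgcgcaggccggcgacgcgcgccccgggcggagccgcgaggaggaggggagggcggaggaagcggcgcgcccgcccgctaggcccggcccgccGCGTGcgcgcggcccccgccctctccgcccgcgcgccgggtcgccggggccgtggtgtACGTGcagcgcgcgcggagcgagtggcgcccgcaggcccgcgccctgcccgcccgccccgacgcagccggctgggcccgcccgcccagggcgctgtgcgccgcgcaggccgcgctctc
Egln2: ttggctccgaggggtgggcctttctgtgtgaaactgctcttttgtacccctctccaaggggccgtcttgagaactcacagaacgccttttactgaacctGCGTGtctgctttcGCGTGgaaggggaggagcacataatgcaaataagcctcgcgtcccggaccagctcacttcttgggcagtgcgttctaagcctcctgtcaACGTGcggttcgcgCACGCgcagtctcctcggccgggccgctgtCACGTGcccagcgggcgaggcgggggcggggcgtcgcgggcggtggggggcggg
Egln3: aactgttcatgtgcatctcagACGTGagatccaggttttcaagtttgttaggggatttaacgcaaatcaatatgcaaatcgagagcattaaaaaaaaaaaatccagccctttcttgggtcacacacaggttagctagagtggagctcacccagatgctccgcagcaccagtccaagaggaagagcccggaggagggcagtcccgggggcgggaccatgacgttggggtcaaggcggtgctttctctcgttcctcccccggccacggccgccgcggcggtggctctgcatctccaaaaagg

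The Egln1 promoter held 2 matches, with first bases at positions -126 and -68 from the RefSeq start, and that of Egln3 held 1, at -229. The promoter of the outer Egln2 start held 6 matches, whereas that of a second RefSeq start of Egln2 (chr7:27165679-27165978, 49.3% GC) held 1, as many as Egln3. At least 1 match was found in 43.8% of the 32851 promoters of the reference, at least 2 in 20.6% and at least 6 in 0.7%. Among promoters with at least 70% GC the share with a match was 72.0%, and the Egln1 promoter has 86.0% GC. Promoter sequences were found for 9 of the 10 members, 7 of which had a match: beside the Egln genes these were Hif1a (whose RefSeq start lies 6492 bases inside the GENCODE gene), Hif3a, Arnt and Cited2, and the promoters of Vhl and Hif1an had none. The matches describe these windows alone, and binding was not measured.

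Egln1 (PHD2) is the main oxygen sensor among the prolyl hydroxylases. In control teeth it had 58.7, 64.0, 56.8, 61.4 and 52.3 CPM (the gene's count per 1e6 counts of the TMM-scaled library) in embryos 1, 2, 3, 4 and 6. In the IGF1 teeth of the same embryos it had 89.8, 236, 171, 83.8 and 82.4 CPM. The groups did not overlap, and the lowest IGF1 tooth lay 18.4 CPM above the highest control tooth. The teeth of embryos 2 and 3 stood far above the other 3 IGF1 teeth, although the 5 control teeth were close together (coefficient of variation 7.65%, against 51.8% with IGF1). The log2 change per embryo was 1.88 and 1.58 in embryos 2 and 3 and 0.61, 0.45 and 0.65 in embryos 1, 4 and 6. Egln1 stayed past the threshold under each of 11 alternative settings, with a log2 fold change from 0.84 (without embryo 2) to 1.22 (without embryo 4).

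Egln3 (PHD3) is the paralog most strongly induced by hypoxia in many cell types. In control teeth it had 24.0, 11.3, 8.98, 10.6 and 11.4 CPM in embryos 1, 2, 3, 4 and 6, and in IGF1 teeth 26.8, 153, 87.5, 28.7 and 25.4 CPM. Here too the groups did not overlap, as 2 of 10 members and 7.25% of all genes tested did not, but the margin was small, because the control tooth of embryo 1 was nearly as high as the lowest IGF1 tooth. The per-embryo log2 change was 3.73 in embryo 2, 3.24 in embryo 3, 1.40 in embryo 4, 1.14 in embryo 6 and 0.15 in embryo 1. In embryo 1 the 2 teeth could not be told apart by counting error, with 95% Poisson intervals of 18.8 to 30.4 CPM (70 counts) and 21.6 to 32.8 CPM (93 counts). The spread of the change between embryos (SD 1.50) was exceeded by 1.25% of all genes tested, whose median SD was 0.248. By size of rise Egln3 ranked 25 and Egln1 193 among the 14504 genes. Egln3 was called under all 11 alternative settings, from 1.59 (without embryo 2) to 2.50 (without embryo 1) on the log2 scale.

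Egln2 (PHD1), the remaining prolyl hydroxylase, was not called. It had 31.3 to 48.9 CPM in control teeth and 29.7 to 45.2 CPM in IGF1 teeth. Its log2 fold change was -0.04 (95% interval -0.25 to 0.17, adjusted p = 0.833), and it was higher in 2 of 5 embryos. The difference between the changes of 2 paralogs was tested within embryos, in 4 pairs of members, with an exact 2-sided sign-flip permutation test, whose smallest p with 5 embryos is 0.062. The log2 change of Egln1 exceeded that of Egln2 by 1.06 (SD 0.715) in 5 of 5 embryos (exact p = 0.062, adjusted over the pairs 0.167). The change of Egln3 exceeded that of Egln2 by 1.97 (SD 1.60) and that of Egln1 by 0.90 (SD 0.935), each in 4 of 5 embryos (exact p = 0.125, adjusted 0.167). Embryo 1 was the exception in both: its Egln3 changed 0.46 less than its Egln1. Since 5 embryos cannot reach 0.05 in this test, the sizes stand as descriptions.

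**Figure D2:**
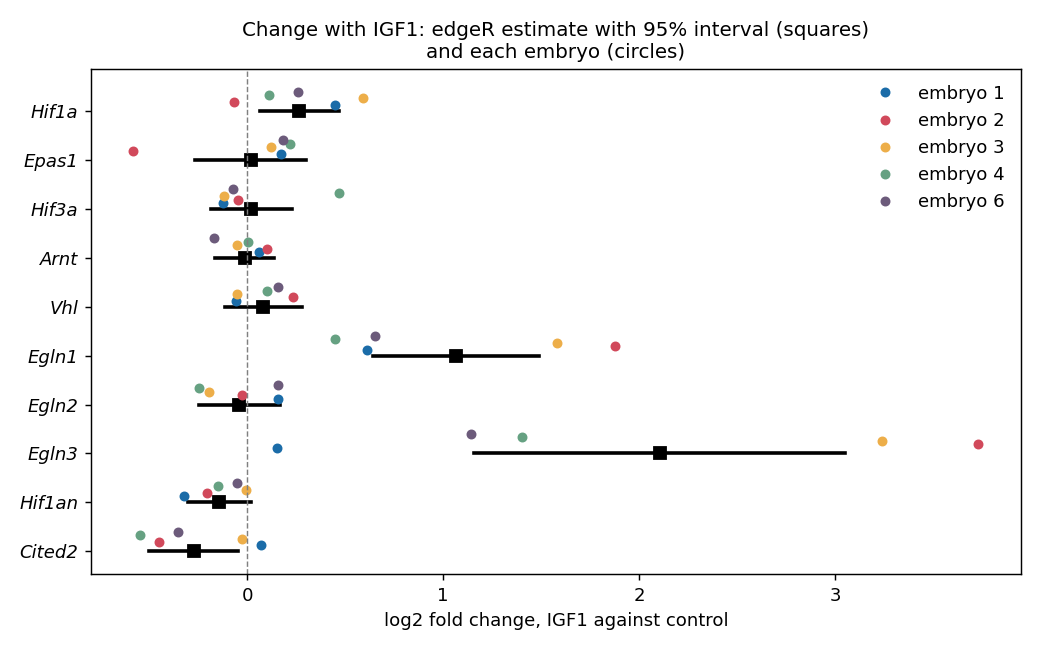
Log2 fold change with IGF1 of each member (x axis). Black squares are edgeR estimates from all 5 embryos with 95% intervals, not adjusted over genes, and circles are the changes of single embryos. The intervals of Egln1 (0.64 to 1.49) and Egln3 (1.16 to 3.05) lie above 0 and apart from those of the other members, all below 0.50. Those of Hif1a (0.06 to 0.47) and Cited2 (-0.50 to -0.05) also leave out 0, although neither was called.

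Levels of different genes were compared as CPM per kb of exon, with the union of exons in the annotation as length. Egln1 and Egln3 have 1 annotated transcript each, Egln2 has 4 and Arnt 11. With several transcripts the union can be longer than those present, so levels and shares are approximate. In control teeth the 3 prolyl hydroxylases summed to 34.6 CPM per kb (SD 4.34, n = 5). The share of each paralog in this sum was taken in each tooth and then averaged over teeth, and it was 47.5% for Egln1, 38.4% for Egln2 and 14.1% for Egln3. In IGF1 teeth the sum was 74.1 CPM per kb (SD 38.4, n = 5), and the mean shares were 49.7% for Egln1, 21.9% for Egln2 and 28.4% for Egln3. The share of Egln1 was near its control value (41.0% to 53.6% in control, 47.8% to 52.2% with IGF1), while the mean share of Egln2 was lower and that of Egln3 higher. The shift was largest in embryos 2 and 3, where Egln3 went from 12.7% to 42.9% and from 10.8% to 36.1%. In embryo 1 its share was 22.7% in the control tooth and 19.7% in the IGF1 tooth, so here it did not grow.

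**Figure D3:**
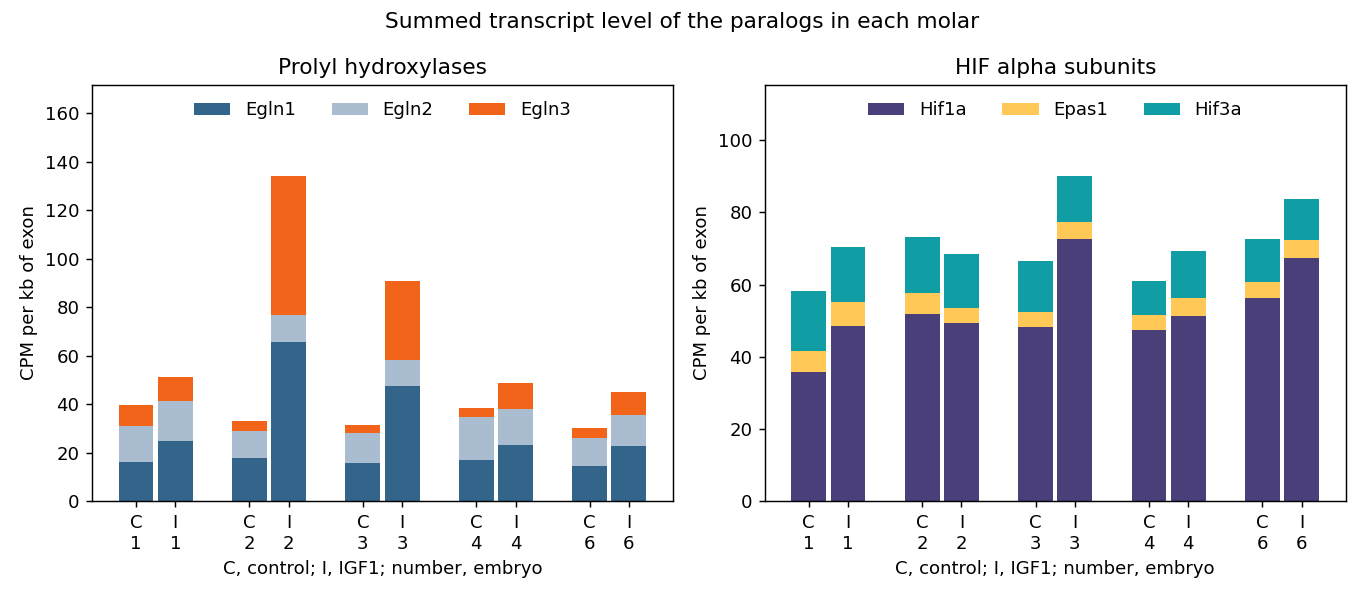
Transcript level per tooth (y axis, CPM per kb of exon, stacked, from 0) of the prolyl hydroxylases (left) and the HIF alpha subunits (right), with control (C) and IGF1 (I) teeth of each embryo side by side. The hydroxylase sum reaches 134 in the IGF1 tooth of embryo 2 and 91.0 in that of embryo 3, against 30.2 to 39.9 in control teeth, while Hif1a makes up most of the alpha subunits in all teeth.

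Hif1a encodes the broadly expressed alpha subunit. It had 210, 305, 284, 279 and 332 CPM in the control teeth of embryos 1, 2, 3, 4 and 6 and 287, 291, 428, 302 and 398 CPM with IGF1. The groups overlapped, and embryo 2, with the largest rise of Egln1 and Egln3, was the only embryo in which Hif1a was lower with IGF1. The log2 fold change was 0.27 (95% interval 0.06 to 0.47, adjusted p = 0.0890), with 4 of 5 embryos higher. Without embryo 2 it was 0.35 and past the threshold (adjusted p = 0.0372); over the 11 alternatives the adjusted p ran from 0.0372 to 0.309. A coding gene on the same strand, Gm49321, shares 148 exonic bases with Hif1a, and it had 0 to 18 counts per tooth, at most 0.748% of those of Hif1a.

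Epas1 encodes HIF-2 alpha, known for its expression in endothelium. It had 23.8 to 33.7 CPM in control teeth and 22.5 to 36.9 CPM with IGF1, with a log2 fold change of 0.02 (95% interval -0.26 to 0.30, adjusted p = 0.955). Of 11 endothelial markers, 2 (Cdh5 and Esam) were lower with IGF1 and 9 were not called, and their summed level was 429 to 494 CPM in control teeth and 347 to 456 CPM in IGF1 teeth. The ranges overlapped, but within pairs the sum was lower with IGF1 in 5 of 5 embryos. Cdh5, Tek, Esam and Sox17 were each lower in 5 of 5, and no endothelial marker was higher in all embryos. All genes tested gave 4.76% called lower. In bulk teeth fewer cells of a type and less RNA per cell cannot be told apart, and the part of endothelial cells in the Epas1 value was not tested.

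Hif3a, whose product binds the same partner and includes forms that inhibit the other subunits, had 63.7 to 112 CPM in control and 76.1 to 103 CPM in IGF1 teeth. Its log2 fold change was 0.02 (95% interval -0.19 to 0.23, adjusted p = 0.919); only embryo 4, whose control tooth was the lowest, was higher with IGF1. Counts are per gene, so its forms were not separated. Per kb of exon, the 3 alpha subunits summed to 66.3 CPM in control teeth, and the shares averaged over teeth were 71.9% (SD 6.64) for Hif1a, 20.5% (SD 5.20) for Hif3a and 7.58% (SD 1.59) for Epas1. With IGF1 the mean shares, in the same order, were 75.2% (SD 5.12), 18.1% (SD 3.99) and 6.73% (SD 1.62), and their ranges overlapped those of the control. The change of Hif1a exceeded that of Epas1 by 0.24 on the log2 scale (SD 0.263, 4 of 5 embryos, exact p = 0.188, also after adjustment).

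Arnt, the common partner, had the smallest spread of the change between embryos among the members (SD 0.105). It had 118 to 131 CPM in control teeth and 105 to 141 CPM with IGF1. The log2 fold change was -0.01 (95% interval -0.16 to 0.14, adjusted p = 0.937), and 92.4% of all genes tested had a larger spread of the change between embryos. Vhl, the substrate receptor of the ligase, had 26.2 to 33.7 CPM in control and 29.3 to 39.6 CPM in IGF1 teeth, with the highest value in embryo 2. Its log2 fold change was 0.08 (95% interval -0.11 to 0.28, adjusted p = 0.606).

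The remaining members act on the coactivator step. Hif1an (FIH) had 109, 89.0, 84.5, 98.6 and 93.0 CPM in the control teeth of embryos 1, 2, 3, 4 and 6 and 87.3, 77.3, 84.1, 88.9 and 89.8 CPM with IGF1. It was lower with IGF1 in 5 of 5 embryos, but by little (log2 fold change -0.14, 95% interval -0.30 to 0.02, adjusted p = 0.245), and the groups overlapped. A change in the same direction in all 5 embryos was seen in 3 of 10 members (Egln1, Egln3 and Hif1an) and in 24.2% of all genes tested. Cited2 had 47.4, 51.7, 48.8, 59.0 and 41.3 CPM in control teeth and 49.8, 37.8, 47.9, 40.2 and 32.3 CPM with IGF1. It was lower in 4 of 5 embryos (log2 fold change -0.27, 95% interval -0.50 to -0.05, adjusted p = 0.116). Cited2, although known to be inducible by hypoxia, was thus not among the members that rose.

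Ordered by level in control teeth, Hif1a came first with 47.9 CPM per kb (SD 7.69), followed by Cited2 with 20.2 (SD 2.63), Egln1 with 16.3 (SD 1.25) and Arnt with 15.6 (SD 0.627). Next were Hif1an with 14.4 (SD 1.45), Hif3a with 13.5 (SD 2.86), Egln2 with 13.3 (SD 2.66) and Vhl with 10.4 (SD 1.02). Epas1 with 4.98 (SD 0.877) and Egln3 with 4.98 (SD 2.29) came last. The ranges of neighbours in this order overlapped except between Hif1a and Cited2 and between Vhl and Epas1. With IGF1, Egln1 moved from place 3 to place 2 (36.9 CPM per kb, SD 19.1) and Egln3 from place 10 to place 3 (24.1, SD 21.1). That place rests on embryos 2 and 3. In the IGF1 tooth of embryo 2 Egln1 (65.7 CPM per kb) and Egln3 (57.5) exceeded Hif1a (49.4), and in embryos 1, 4 and 6 Egln3 ranked 8 or 9 among the 10 members.

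The rest of the pathway was read from lists of known HIF targets and regulators. Earlier results of these data were known when the lists were drawn up, so their counts are descriptions and not independent evidence. Of 26 HIF target genes tested (27 listed, and Car9 was too low), 21 were higher with IGF1 (80.8%, against 6.72% of all genes tested) and 5 were not called, with a median log2 fold change of 1.54. The 5 with the largest rise were Ankrd37 (log2 fold change 2.90), Bnip3, a mitophagy receptor (2.20), Higd1a, a mitochondrial protein (2.14), P4ha2, a collagen prolyl hydroxylase (2.06), and Hk2, a hexokinase (1.92). The list does not hold all known targets, and targets outside it went both ways. Angptl4 was lower (log2 fold change -1.30, edgeR's adjusted p = 0.00032) and was higher in 0 of 5 embryos. Slc2a3 was higher (log2 fold change 1.22, edgeR's adjusted p = 0.0296), in 5 of 5. Per embryo, the median change of the target genes was 2.31 and 2.26 in embryos 2 and 3 and 0.53, 0.84 and 0.80 in embryos 1, 4 and 6. These are the same 2 embryos in which Egln1 and Egln3 rose most. The summed level of the targets was 1668 to 2298 CPM in control teeth, with the highest value in embryo 1, and 3401, 8773, 6153, 3371 and 2756 CPM in the IGF1 teeth of embryos 1, 2, 3, 4 and 6. Each embryo gave a single tooth to each group, so a difference between embryos has no replicate check.

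Of 25 regulators of HIF tested (27 listed), 2 were higher, 0 lower and 23 not called, with a median log2 fold change of 0.03. The share called was 8%, beside 11.5% of all genes tested. By edgeR's unadjusted p under 0.05 there were 6, or 24%, where all genes gave 26.5%. All 5 partners of Vhl in the ligase (Elob, Eloc, Cul2, Rbx1 and Nedd8), both deubiquitinases, the 4 coactivators and CBP/p300 binders measured and 6 further bHLH-PAS factors were not called. The 2 that rose were Siah2, a ubiquitin ligase that targets Egln3 and Egln2 for degradation (log2 fold change 0.84, SE 0.188, adjusted p = 0.0158), and Hsp90aa1, a chaperone that binds Hif1a protein (log2 fold change 0.63, SE 0.0908, adjusted p = 0.00162). Siah2 was 10.1 CPM (SD 1.61, n = 5) in control and 18.1 CPM (SD 5.44, n = 5) in IGF1 teeth. Without embryo 6 its log2 fold change was still 0.84, but it missed the threshold (edgeR's adjusted p = 0.0528). The change of Siah2 was largest in embryo 2 (1.67), whereas that of Hsp90aa1 was largest in embryo 4 (1.01).

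**Figure D4:**
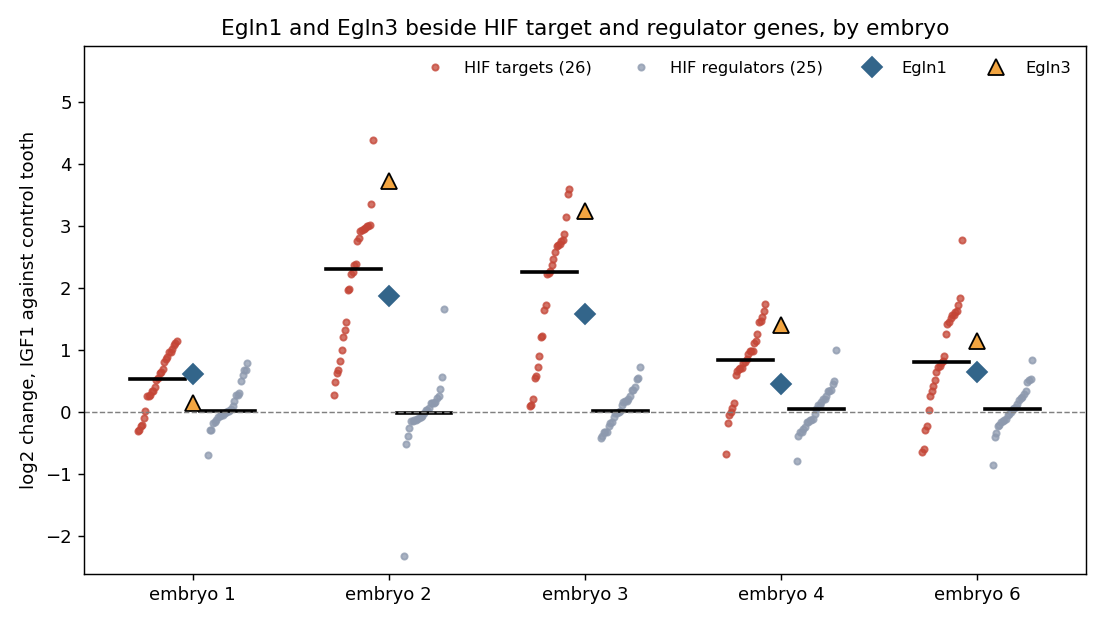
Log2 change between the teeth of each embryo (y axis) for 26 HIF target genes (red circles) and 25 HIF regulators (grey circles), sorted by value, with black bars at their medians. Egln1 (blue diamond) and Egln3 (orange triangle) lie within the range of the target genes in all embryos, and above all 25 regulators in embryos 2 and 3; in embryo 1 Egln3 is at 0.15.

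The 5 genes whose log2 CPM over the 10 teeth were most like those of Egln1, the member with the lowest adjusted p, were Ero1l, an oxidoreductase of the endoplasmic reticulum (Pearson r = 0.986), Vegfa, the vascular growth factor (0.985), Alkbh5, an RNA demethylase (0.983), Trim66 (0.979) and P4ha1, a collagen prolyl hydroxylase (0.974). Each of them was also higher with IGF1. Egln3 had r = 0.957 with Egln1, and the other members lay between -0.690 (Hif1an) and 0.624 (Vhl). These values describe 10 teeth in which both the treatment and the embryo vary, and they are given without a test.

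Markers of other cell types were read as well. Of 8 epithelial markers 1 was higher (Krt5), of 8 mesenchymal markers 2 were lower (Vim and Pdgfra), of 5 macrophage markers 1 was lower (Csf1r) and of 6 erythroid markers 5 were lower (83.3%). Over all genes tested, 6.72% were called higher and 4.76% lower. Their summed levels in control and IGF1 teeth were 1476 to 2206 and 1762 to 2319 CPM for epithelium, 5004 to 6499 and 4378 to 6750 CPM for mesenchyme, 46.3 to 66.6 and 40.1 to 63.1 CPM for macrophages and 849 to 1421 and 604 to 1108 CPM for erythroid cells. The ranges overlapped in all 4 lists. Within pairs, however, all 6 erythroid genes tested were lower with IGF1 in 5 of 5 embryos, with list medians of -0.21, -0.23, -0.85, -0.66 and -0.49 (log2 change, embryos 1, 2, 3, 4 and 6), and their sum was lower in 5 of 5. Vim, Pdgfra and Pax9 and Csf1r were also lower in 5 of 5 embryos, and Krt5 and Krt8 were higher in 5 of 5. Some other members of these lists went the other way without being called. Krt18 and Trp63 were higher in only 1 of 5 embryos, and Col1a1, Col1a2 and Cd68 were higher in 4 of 5. The macrophage sum was lower in 5 of 5 embryos, the mesenchymal sum lower in 4 and the epithelial sum higher in 4. In the same order, the median log2 fold changes of these lists were -0.16, -0.11 and -0.009. The macrophage median of embryo 1 was 0.17, opposite in direction to its sum. The part of these cells in the rise of Egln1 and Egln3 was not tested. Total counts ran from 2845773 to 8403151 in control and from 3456634 to 8763113 in IGF1 teeth, with the lowest totals in embryo 1, so members with few counts are least precise there.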

How the data were processed

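Values are estimated counts per gene, as the authors deposited them: Salmon output without normalization, in whole numbers, so that none was changed by rounding. The submitters' processing notes name Salmon 0.99.0, FastQC 0.11.8, Trimmomatic 0.39, DESeq2 and the build GRCm38. The transcript set and the use of strand are not given in the sources used here. The smallest row total in the table is 10 counts, and GENCODE M21 holds 18287 of its 18381 identifiers. Salmon could divide reads that paralogs or overlapping genes share.

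After the filter filterByExpr and TMM scaling, edgeR's quasi-likelihood test was run across all genes. Embryo was the replicate block, since the labels take each pair of teeth from a single animal. Genes with a Benjamini-Hochberg adjusted p under 0.05 were called. As a check of the pairing, deviations from group means had correlations of 0.319, 0.208, -0.0389, 0.170 and 0.313 between the teeth of embryos 1, 2, 3, 4 and 6, where teeth of different embryos had a median of -0.0463. Within groups, samples differed beyond sampling noise (chi-square 4.10 to 16.1 per degree of freedom). CPM, the count per 1e6 counts, use TMM-scaled library sizes, and changes per embryo are differences of log2 CPM with a prior count of 2. The SE is the size of the log2 fold change divided by the square root of edgeR's F statistic. Intervals of fold changes are 95% intervals from this SE, not adjusted over genes, and Poisson intervals cover counting error only. The members and lists were chosen with earlier results of these data known. Named beside the members are up to 5 called genes in each direction from the target and the regulator list, and the 5 genes most like the member with the lowest adjusted p. Angptl4 and Slc2a3 are named as HIF targets outside the list. The procedure was tested on simulated data in which a changed gene changed by the same factor in all embryos. Changes that differ between embryos, like those of Egln1 and Egln3, were not simulated. As alternatives, the size factors and the Wald test of DESeq2, limma-voom, 2 further filters on low counts, a fit with no block and fits without each embryo were run. The software was Python 3.11.15 and R 4.3.3 with limma 3.58.1, edgeR 4.0.16 and DESeq2 1.42.0. P-values rest on the spread between the 5 embryos. In edgeR the spread of each gene is moderated towards a trend over all genes tested.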

Additional observations from a re-analysis of the deposited data

Results flagged for a closer look

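The control tooth of embryo 1 stood far from the other 4 control teeth for Egln3, by the gap to its nearest neighbour over the whole range (ratio 0.842, above the critical value of 0.71 for 5 samples). It had 24.05 CPM against 8.98 to 11.4 CPM. Its library is the smallest, and its 70 counts compare with 75 to 77 in the other control teeth; the 95% Poisson interval of 18.8 to 30.4 CPM lies above the other values. Of 20 groups examined (10 members in 2 groups) this was the only sample so far apart, and about 1 would be by chance. No other member was far apart in that tooth, and no cause was tested.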

How the results depend on the processing

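Egln1 and Egln3 were called in each of the 11 alternatives, and the only other member called in any was Hif1a (without embryo 2), so that 2 or 3 members were called. The replicate block changed no member's call, but without the replicate block 887 of all genes were called in place of 1666. Leaving out each embryo gave 986 (without embryo 4) to 1602 genes, and 994 without embryo 6; fewer samples enter these fits. The called regulators ran from 1 (without embryo 6) to 3 when an embryo was left out. Over all regulators tested, called or not, the median log2 fold change ran from -0.0049 (without embryo 2) to 0.038, with -0.0020 without embryo 4. The HIF targets called higher ran from 17 (no block) to 21. Over all target genes tested, the median log2 fold change ran from 1.21 to 1.68. Values near 0 that were not called changed sign when an embryo was left out. Epas1 ran from -0.034 to 0.18 (-0.016, -0.018, -0.034 and -0.029 without embryo 1, 3, 4 and 6), Hif3a from -0.090 (without embryo 4) to 0.054, Arnt from -0.042 to 0.023 (without embryo 6) and Egln2 from -0.094 to 0.017 (without embryo 4). The cause of these was not tested. The differences between paralogs kept their direction with DESeq2's size factors and without each embryo. Depth limits embryo 1 most, where Egln3 has 70 and 93 counts.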
